A study of Mus musculus with 48 samples.

Results

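The estrogen receptors Esr1 and Esr2, the 3 estrogen-related receptors Esrra, Esrrb and Esrrg, the estrogen-responsive genes Pgr, Greb1 and Nrip1, and Cyp19a1, which encodes aromatase, were examined in whole blood and in the medial prefrontal cortex (mPFC) of female mice. These 9 genes were represented by 18 of the 55681 probes of the array, and every probe carrying 1 of these gene names was kept. They are 9 of the 34844 gene names on it. C57BL/6J mice aged 17 weeks had undergone either a sham operation or bilateral ovariectomy (OVX), which removes the main source of circulating estrogen, and were then either left undisturbed or exposed for several weeks to chronic ultra-mild stress (CUMS), a rotating schedule of mild changes of cage, access to food and lighting that began after the operation. This gave 4 groups of 6 mice, namely control mice (sham, no stress), CUMS mice (sham with stress), OVX mice (no stress) and OVX+CUMS mice, and blood and mPFC were taken from the same 24 mice. Blood RNA came from the cell pellet of heparinized blood. None of these groups is labelled as having received hormone, so the loss of single ovarian hormones cannot be told apart.

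Esr1 and Esr2 encode the nuclear receptors for estradiol, ERα and ERβ, which bind DNA at estrogen response elements and recruit coactivators or corepressors. The estrogen-related receptors resemble them in sequence but do not bind estradiol, and they act with the PGC-1 coactivators on genes of mitochondrial energy metabolism. Aromatase converts androgens to estrogens. Pgr, the progesterone receptor, and Greb1, a receptor cofactor, are classical genes induced by estrogen in reproductive tissues, and Nrip1 (RIP140) is both induced by estrogen and a corepressor of the receptors.

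The probes that carried most of the results are shown by 30 of their 60 bases, in sense orientation, so that each measured stretch of transcript can be recognised. Capitals mark the polyadenylation signal AATAAA, which was present in 10.1% of all probes on the sense strand. Of the 7 probes shown, the Esrrb probe alone held it.
Esr2 A_55_P2008197: cccatgggccaagcatattcaaaccaccat
Esrra A_55_P1954306: aatgtatatttgctgcaaagagaaaccgct
Esrrb A_55_P1954302: catgtatctgaaatctAATAAAtaaggaaa
Greb1 A_55_P2114776: ctgctttattagttaatttaaatgaacact
Greb1 A_55_P2114779: tgaagagttgccttccaaaggaaagaggac
Nrip1 A_51_P152747: ttacagtcaaagaagagctacttcccgctg
Cyp19a1 A_51_P474551: gagtaaaatatagctaggactctatgtgtg
In mm9, the build named in the array files, these probes lie at chr12:77221426-77221485 (Esr2, minus strand), chr19:6985503-6985562 (Esrra, minus), chr12:87862509-87862568 (Esrrb, plus), chr12:16677448-16677507 and chr12:16678455-16678514 (Greb1, minus), chr16:76291555-76291614 (Nrip1, minus) and chr9:54013778-54013837 (Cyp19a1, minus). The longest run of bases shared by any 2 of the 18 member probes was 11, so no member probe was a near copy of another. In the RefSeq annotation, Esrra alone overlapped another protein-coding gene (Trmt112). Promoter windows of the 9 genes (RefSeq, GRCm38.p6, from 250 bases before to 50 bases after each start) were searched on both strands for the estrogen response element, written as GGTCA and TGACC separated by any 3 bases, and for the element of the related receptors, TCAAGGTCA. Neither was found in these windows, and among all promoter windows they were present in 0.07% and 0.423%.

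The labelled tissues carried their markers. All 8 B cell genes and 8 of 9 erythroid genes were detected in blood, where 3 of the 10 neuron genes were detected as well and Gad2, Neurod6 and Stmn2 were never above background. All 10 neuron genes were detected in mPFC. Arrays of a tissue were run on 3 slides, of which the first held all control mice and 2 CUMS mice, the second 4 CUMS and 4 OVX mice, and the last 2 OVX mice and all OVX+CUMS mice, so that control and OVX+CUMS mice never shared a slide. The 75th percentile of the signal ranged from 54.9 to 192 in blood and from 572 to 689 in mPFC. In blood its median was 110 in control, 90.1 in CUMS, 139 in OVX and 125 in OVX+CUMS mice. Levels are given as log2 signal relative to this percentile of the same array, so that 0 is a probe at the percentile.

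A probe was called detected in a tissue when it was well above background on all 24 arrays and above a signal of 50 on at least 2. In blood, 7 of the 18 probes passed, from 6 genes (Esr2, Esrra, Esrrb, Greb1, Nrip1 and Cyp19a1), and 37.3% of all probes of the array passed. In mPFC, 12 probes from 8 genes passed, beside 50.9% of all probes of the array, and Cyp19a1 was the gene that did not.

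**Figure D1:**
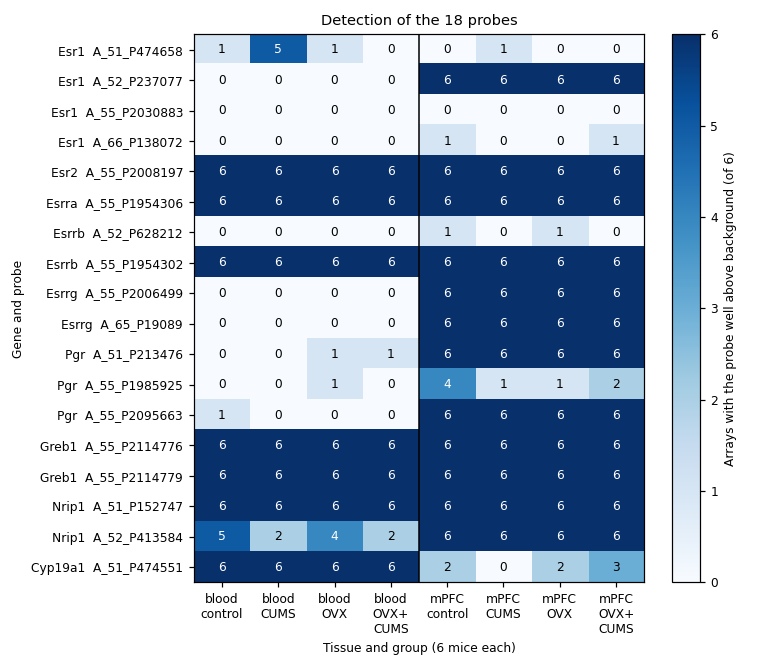
Number of arrays, of 6 per group, on which each of the 18 probes was well above background, by tissue and group. The Esrrg probes were at 6 in every mPFC group and at 0 in every blood group, while Cyp19a1 was at 6 in every blood group and between 0 and 3 in mPFC.

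Esr1, ERα, was the receptor least readily measured. Its probe A_52_P237077, printed in 10 spots, was detected on every mPFC array, where signals ran from 50.7 to 259.5, and on no blood array. Its probe A_55_P2030883 was above background on no array of either tissue. Probe A_66_P138072 was above background on no blood array and on 2 mPFC arrays. In blood, the remaining probe A_51_P474658 was above background on 5 of 6 CUMS arrays, and on 1, 1 and 0 arrays of the control, OVX and OVX+CUMS groups. Its level ranged from -5.38 to -3.27 (median -4.35) in control mice and from -3.17 to -2.11 (median -2.81) in CUMS mice, without overlap. Before scaling, the signals overlapped (2.49 to 11.8 in control and 7.44 to 18.4 in CUMS mice), and the CUMS arrays had the lowest 75th percentiles. With the control arrays mostly at background, no fold and no test is given. All signals of this probe in blood were at or below 18.4, no other Esr1 probe was above background there, and the probe was not in the model across all detected probes.

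Esr2, ERβ, was detected on all 48 arrays. In blood it ranged from 2.12 to 3.36 (median 2.91) in control, from 1.87 to 2.66 (median 2.47) in CUMS, from 2.98 to 3.72 (median 3.32) in OVX and from 2.82 to 3.68 (median 3.32) in OVX+CUMS mice. Every mouse without ovaries was above every CUMS mouse, and both OVX groups overlapped the controls. The share of all probes that separated in this way was not computed. Within the second slide, CUMS minus OVX was -0.83 ± 0.19 (limma adjusted p = 0.00977), where 52.2% of all detected probes had an adjusted p under 0.05. The OVX effect, that is the mean of the OVX and OVX+CUMS groups minus the mean of the control and CUMS groups, was 0.68 ± 0.14 (SE; limma adjusted p = 0.000633). In mPFC the corresponding change was -0.09 ± 0.13 (adjusted p = 0.647), with a 95% interval from -0.35 to 0.18.

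Across the members, 5 of the 7 detected probes passed the threshold (adjusted p under 0.05 over all detected probes) for OVX in blood. Over all 20767 detected probes 55.1% passed, so a call for OVX in blood was common and does not set a member apart. The 5 were Esr2 and Greb1 A_55_P2114779, which were higher, and Esrrb, Greb1 A_55_P2114776 and Cyp19a1, which were lower. Under spike-in scaling, 4 were called higher (Esr2, Greb1 A_55_P2114779, Esrra and Nrip1) and 1 lower (Cyp19a1), so that 3 of the 5 calls were shared. Their median change over the 7 probes was 0.10, beside 0.04 over all probes.

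Cyp19a1, aromatase, showed the largest of these changes in blood. Levels ranged from -1.79 to -0.67 (median -1.15) in control, from -1.78 to -0.66 (median -1.56) in CUMS, from -2.50 to -2.0 (median -2.42) in OVX and from -1.93 to -1.44 (median -1.68) in OVX+CUMS mice. All 6 OVX mice were below every control mouse and below every mouse of the other groups. The OVX effect was -0.69 ± 0.13 (adjusted p = 0.000268), and OVX minus control was -1.11 ± 0.18 (limma adjusted p = 0.000246). In this contrast 2 of the 7 probes passed, beside 27.1% of all probes, and the same 2 did not overlap, beside 19.8%. The OVX+CUMS mice lay between, and the interaction, the stress difference in OVX mice minus that in sham mice, was 0.83 ± 0.25 (adjusted p = 0.0795). Without CUMS mouse 2 it passed the threshold (0.98, adjusted p = 0.00477), and with normexp background correction it was 0.17 (adjusted p = 0.545).

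The Cyp19a1 signals were low, between 20.9 and 63.2 in blood. Before scaling, the ranges of the control mice (35.5 to 63.2) and of the OVX mice (20.9 to 44.1) overlapped. The OVX effect fell to -0.36 with a normexp background correction and to -0.34 when arrays were scaled by their spike-in probes, and it was called in both. Within the slide that held 4 CUMS and 4 OVX mice, CUMS mice were higher by 0.79 ± 0.17 (limma adjusted p = 0.00919). In that contrast 52.2% of all detected probes passed, and its groups differed in both surgery and stress. Within the slide of OVX and OVX+CUMS mice, the latter were higher by 0.60 ± 0.16 (adjusted p = 0.0995), where 0 of all detected probes passed.

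The 2 Greb1 probes, which start at bases 7992 (A_55_P2114776) and 6985 (A_55_P2114779) of the same transcript, moved in opposite directions with OVX in blood. Probe A_55_P2114779 ranged from -2.24 to -0.91 (median -1.59) in control, from -1.49 to -0.01 (median -0.93) in CUMS, from -0.78 to -0.14 (median -0.66) in OVX and from -0.67 to -0.33 (median -0.42) in OVX+CUMS mice. All OVX and all OVX+CUMS mice were above every control mouse. For OVX+CUMS against control it was the 1 member probe that passed (1.15 ± 0.21, limma adjusted p = 0.00128) and the 1 that did not overlap, beside 6.26% and 8.18% of all probes. The OVX effect was 0.66 ± 0.15 (adjusted p = 0.00136), the CUMS effect was 0.49 ± 0.15 (adjusted p = 0.0122), and normexp background correction reduced the OVX effect to 0.29 (adjusted p = 0.0057). The CUMS effect was not called with slide as a block (0.36, adjusted p = 0.147) or under spike-in scaling (0.19, adjusted p = 0.295). Neither OVX nor OVX+CUMS mice shared a slide with control mice. CUMS mice averaged -1.14 on the first slide and -0.59 on the second. Within the second slide, CUMS minus OVX was -0.03 ± 0.27 (limma adjusted p = 0.918).

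Probe A_55_P2114776 ranged from 2.20 to 2.69 (median 2.43) in control, from 1.96 to 3.49 (median 3.13) in CUMS, from 1.40 to 2.90 (median 2.49) in OVX and from 1.66 to 3.00 (median 1.90) in OVX+CUMS mice. The 4 groups overlapped. The OVX effect of -0.51 ± 0.21 passed narrowly (adjusted p = 0.0387). It was not called under 6 other settings or when any of 11 single mice was left out, and its sign turned with slide as a block (0.33, adjusted p = 0.918). The 4 OVX mice of the second slide averaged 2.65 and the 2 of the last slide 1.40.

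Esrrb, the related receptor known from embryonic stem cells and trophoblast, was highest in the blood of CUMS mice with ovaries. Levels ranged from 0.25 to 0.94 (median 0.64) in control, from 1.06 to 1.64 (median 1.24) in CUMS, from 0.17 to 0.95 (median 0.56) in OVX and from 0.26 to 1.31 (median 0.70) in OVX+CUMS mice. All CUMS mice were above every control mouse, by 0.67 ± 0.17 on average (limma adjusted p = 0.00817), and it was the 1 detected member of this contrast whose groups did not overlap, beside 4.04% of all detected probes. By the adjusted p, 3 of the 7 members passed, beside 29.7%. The OVX+CUMS mice differed from control mice by 0.06 ± 0.17 (limma adjusted p = 0.88). The CUMS effect was 0.41 ± 0.12 (adjusted p = 0.00832) and the OVX effect was -0.35 ± 0.12 (adjusted p = 0.0159). CUMS mice were above OVX mice within their shared slide too, by 0.61 ± 0.16 (adjusted p = 0.0134), where 52.2% of all detected probes passed. Those groups differed in both surgery and stress. Within the first slide, CUMS minus control was 0.67 ± 0.21 (limma adjusted p = 0.16, 2 CUMS mice), where 0 of all detected probes passed. Under spike-in scaling the CUMS and OVX effects were 0.12 and 0.00 and neither was called. The second Esrrb probe, A_52_P628212, was above background on no blood array.

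Esrra, the related receptor most closely tied to oxidative metabolism, was lower with stress in blood. It ranged from 2.24 to 2.69 (median 2.30) in control, from 1.52 to 2.40 (median 1.93) in CUMS, from 2.17 to 2.73 (median 2.36) in OVX and from 2.01 to 2.33 (median 2.31) in OVX+CUMS mice. Of the CUMS mice, 4 were below every control mouse. The CUMS effect was -0.30 ± 0.10 (adjusted p = 0.0146) and remained called with slide as a block (-0.44, adjusted p = 0.0139) and under spike-in scaling (-0.60, adjusted p = 0.0128).

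For CUMS in blood, 3 of the 7 probes passed (Esrrb and Greb1 A_55_P2114779 higher, Esrra lower), and 48.5% of all detected probes passed. The CUMS change of Esr2 was -0.24 ± 0.14 (adjusted p = 0.153), and it was called without control mouse 2 (-0.31, adjusted p = 0.0464). No member passed for the interaction in blood, for which 1.42% of detected probes passed. An unadjusted limma p under 0.05 was found for 4 of the 7, beside 3571 of all 20767 detected probes. Nrip1 passed for neither factor: its OVX change was 0.10 ± 0.09 (adjusted p = 0.341), and levels ran from 0.47 to 0.95 in control and from 0.89 to 1.27 in OVX mice. Among CUMS mice, Nrip1 averaged 0.65 on the first slide and 1.10 on the second.

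**Figure D2:**
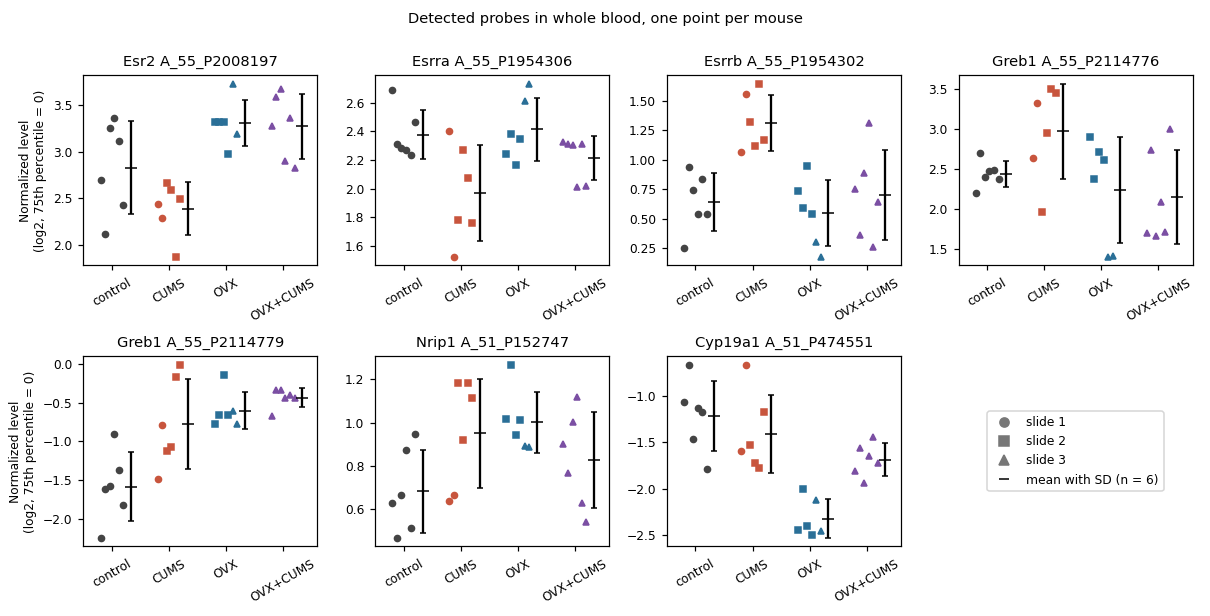
Normalized level (log2, 0 is the 75th percentile of the array) of the 7 detected probes in whole blood, with 1 point per mouse, symbols for the slide, and the mean with SD of each group of 6. Cyp19a1 in OVX mice lay below that in all other mice, and Greb1 A_55_P2114776 in OVX mice split by slide, at 2.65 and 1.40 on average.

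The slide limited every OVX result. With slide as a block, 0 of the 20767 probes in blood passed for OVX, and so did 0 of the members. The block left OVX changes of 0.50 for Esr2, 0.39 for Greb1 A_55_P2114779, -0.44 for Cyp19a1 and -0.04 for Esrrb, with adjusted p between 0.819 and 0.989. OVX and slide were largely the same split of the mice, so most of the OVX effect cannot be told apart from slide.

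Cell type markers in blood moved with both factors as well. With OVX, 5 of 9 B cell probes were higher and 6 of 10 erythroid, 4 of 11 platelet and 3 of 7 NK cell probes lower, beside 27.4% higher and 27.7% lower over all probes. With CUMS, 7 of 9 B cell, 7 of 11 T cell and 3 of 7 NK cell probes were lower and 6 of 10 erythroid probes higher, beside 29.4% lower and 19.1% higher over all probes. The summed B cell level ranged from 261 to 381 in control, 174 to 309 in CUMS, 400 to 483 in OVX and 170 to 394 in OVX+CUMS mice, and the erythroid sum from 11000 to 18400, 13600 to 26100, 7690 to 12100 and 9780 to 13200. The neutrophil sum of 1 OVX+CUMS mouse reached 3940, against a median of 668 in its group. The part of these markers in the changes of the members was not tested, and a lower level in bulk blood does not tell fewer cells of a type from less RNA per cell.

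In mPFC the members changed little. Of the 12 detected probes, 1 passed for OVX, where 30.9% of all 28358 detected probes passed. None passed for CUMS or for the interaction, where 4.19% and 4.49% of all probes passed. An unadjusted limma p under 0.05 was found for 3 and 2 of the 12, beside 6579 and 6631 of all 28358 probes. The median OVX change over the 12 probes was 0.04, the same as over all probes.

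The probe that passed was Greb1 A_55_P2114776. In mPFC it ranged from -1.03 to -0.78 (median -0.93) in control, from -1.25 to -0.83 (median -1.06) in CUMS, from -1.61 to -0.93 (median -1.36) in OVX and from -1.67 to -1.07 (median -1.36) in OVX+CUMS mice. All OVX+CUMS mice and 5 of 6 OVX mice were below every control mouse. For OVX+CUMS against control it was the 1 member that passed and the 1 that did not overlap, beside 33.4% and 17.2% of all probes. The OVX effect was -0.34 ± 0.07 (adjusted p = 0.00129), and with slide as a block it was -0.07 (adjusted p = 0.964). The other Greb1 probe, A_55_P2114779, had an OVX change of -0.18 ± 0.17 (adjusted p = 0.434) and a CUMS change of 0.45 ± 0.17 (adjusted p = 0.107).

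Esrra in mPFC ranged from 3.58 to 4.09 (median 3.68) in control, from 3.60 to 3.86 (median 3.73) in CUMS, from 3.45 to 3.57 (median 3.54) in OVX and from 3.41 to 3.85 (median 3.69) in OVX+CUMS mice. All 6 OVX mice were below every control mouse, and the difference was -0.22 ± 0.09 (limma adjusted p = 0.0482). In this contrast 3 of the 12 probes passed (Esrra, Greb1 A_55_P2114776 and Nrip1 A_51_P152747), beside 33.5% of all probes, and 1 did not overlap, beside 21%. Over all mice the OVX effect was -0.15 ± 0.06 (adjusted p = 0.0625). It passed under 5 other settings and without any of 4 single mice (control 6, CUMS 5, OVX+CUMS 1 and 3), with values between -0.15 and -0.29. Over all 10 other settings it ran from -0.29 to -0.05, with an adjusted p of up to 0.969. With slide as a block, 0 of the members were called for OVX in mPFC. Control and OVX mice shared no slide, and CUMS mice averaged 3.85 on the first slide and 3.67 on the second.

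Nrip1 A_51_P152747 ranged in mPFC from 1.19 to 1.65 (median 1.63) in control and from 1.49 to 2.04 (median 1.81) in OVX mice. OVX minus control was 0.31 ± 0.12 (limma adjusted p = 0.0498), whereas OVX+CUMS minus control was 0.12 ± 0.12 (adjusted p = 0.462). The second Nrip1 probe differed by 0.06 ± 0.12 between OVX and control mice (adjusted p = 0.747). On A_51_P152747, CUMS mice averaged 1.47 on the first slide and 1.86 on the second, and OVX mice 1.90 on the second and 1.65 on the last. Within the second slide, CUMS minus OVX was -0.04 ± 0.08 (limma adjusted p = 0.827). Control and OVX mice shared no slide, so their difference cannot be told apart from slide.

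Pgr was measured in mPFC by 2 detected probes. A_55_P2095663 ranged from 0.12 to 0.42 in control, from 0.13 to 0.47 in CUMS, from 0.08 to 0.32 in OVX and from 0.33 to 0.59 in OVX+CUMS mice, and A_51_P213476 had medians of -2.04, -1.78, -2.07 and -1.86. On the former, all OVX+CUMS mice were above all OVX mice, narrowly (lowest 0.33 against highest 0.32). The other groups overlapped, as did all groups on the latter. The share of all probes that separated OVX+CUMS from OVX mice was not computed. OVX changes were 0.05 ± 0.05 (adjusted p = 0.415) and -0.07 ± 0.07 (adjusted p = 0.504), with 95% intervals from -0.04 to 0.14 and from -0.21 to 0.08. The CUMS changes, 0.11 ± 0.05 and 0.20 ± 0.07, did not pass (adjusted p = 0.157 and 0.0908), and the latter passed without OVX+CUMS mouse 6 (0.25, adjusted p = 0.028).

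Esr1 in mPFC ranged from -3.78 to -1.88 (median -2.27) in control and from -2.20 to -1.91 (median -2.07) in OVX mice. Its OVX change was 0.25 ± 0.21 (adjusted p = 0.374). The 2 Esrrg probes, of the related receptor found in brain and other tissues of high energy demand, had OVX changes of 0.12 ± 0.07 and 0.09 ± 0.11, and CUMS changes of -0.05 ± 0.07 and -0.15 ± 0.11, none of which passed. Esrrb had its highest levels in OVX+CUMS mice (-1.39 to -0.85, median -1.07, against -1.65 to -1.20 in control), with an interaction of 0.39 ± 0.15 (adjusted p = 0.116).

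**Figure D3:**
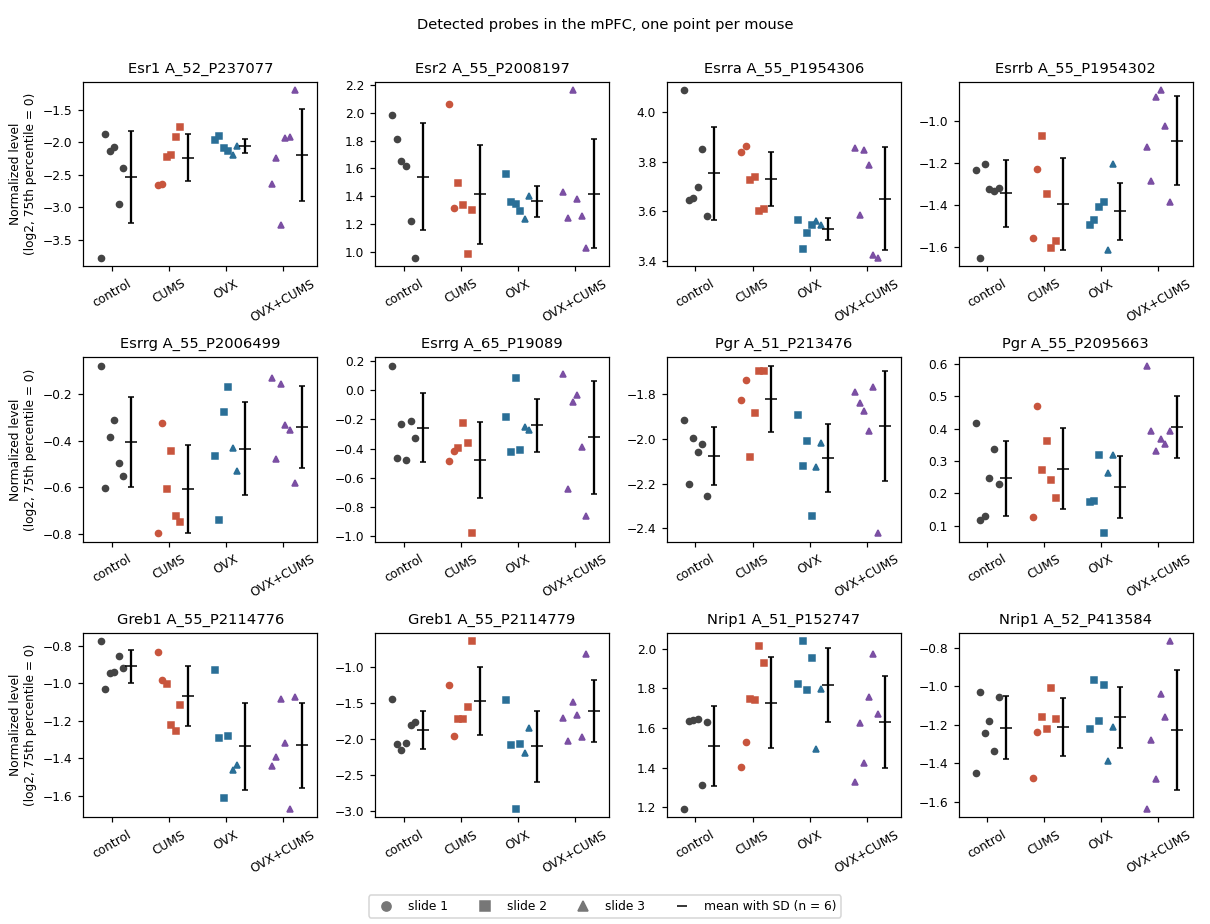
Normalized level (log2, 0 is the 75th percentile of the array) of the 12 detected probes in mPFC, with 1 point per mouse, symbols for the slide, and the mean with SD of each group of 6. Greb1 A_55_P2114776 lay between -1.67 and -1.07 in OVX+CUMS mice and between -1.03 and -0.78 in control mice.

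A few probes that were not detected stood out on single arrays. Pgr in the blood of OVX mouse 1 gave signals of 63.9 and 46.6 on 2 probes, whereas the brightest blood array of any other mouse gave 16.7 on these probes, and its remaining probe was not above background there. Esrrb A_52_P628212 gave 299 in the mPFC of control mouse 6, where its next highest signal was 62.5, and in the same sample Esr1 A_66_P138072 gave 52.7.

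Blood and mPFC were compared on the 17544 probes detected in both, among them 6 member probes, in a model with mouse as a random block. All 6 differed between the tissues, as did 96.5% of probes (41.8% higher and 54.7% lower in mPFC), and the median of all probes was lower in mPFC by 0.43. Esrra and Nrip1 were higher in mPFC by 1.42 ± 0.05 and 0.80 ± 0.06, and Esr2, Esrrb, Greb1 A_55_P2114776 and Greb1 A_55_P2114779 were lower (-1.52 ± 0.09, -2.12 ± 0.07, -3.61 ± 0.11 and -0.91 ± 0.11), except that with spike-in scaling, where the median of all probes was 1.48 higher in mPFC, Esr2 and Greb1 A_55_P2114779 were higher there by 0.40 and 1.00. Both scalings subtract a single value per array, so the position of a probe relative to the median of all probes is the same under both by construction. On that measure, Esr2 and Greb1 A_55_P2114779 were lower in mPFC. In control mice alone, Greb1 A_55_P2114779 did not pass (-0.29, adjusted p = 0.157).

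For probes seen in a single tissue only bounds can be given, as the brighter tissue's mean over the mean, per array of the other, of the lowest signal well above background or the probe's own signal if higher. Esrrg A_55_P2006499 was at least 5.54-fold higher in mPFC in CUMS mice and at least 9.45-fold in OVX+CUMS mice. Pgr A_55_P2095663 was at least 10.2-fold higher in mPFC of CUMS mice and at least 15.9-fold in OVX+CUMS mice. In CUMS mice, where no mPFC array detected it, Cyp19a1 was at least 17-fold higher in blood on this scale. These bounds hold for the percentile-scaled levels only. Before scaling, Cyp19a1 signals in CUMS mice ran from 23.13 to 34.95 (median 33.7) in blood and from 7.25 to 13.88 (median 11.2) in mPFC. The 17-fold is therefore no lower bound for unscaled signals. Bounds were not computed under spike-in scaling, which moved the median tissue difference of all probes from -0.43 to 1.48.

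The effect of OVX differed between the tissues for 4 of the 6 probes, beside 39.3% of all probes (19.4% with a higher and 19.9% with a lower value in mPFC). The difference, mPFC minus blood, was -0.76 ± 0.19 for Esr2 (adjusted p = 0.00146), -0.84 ± 0.22 for Greb1 A_55_P2114779 (adjusted p = 0.00293), 0.46 ± 0.14 for Esrrb (adjusted p = 0.00698) and -0.29 ± 0.11 for Esrra (adjusted p = 0.0305). None of them passed with slide within tissue as a block. The effect of CUMS differed for Esrra alone (0.35 ± 0.11, adjusted p = 0.0082), beside 51.4% of all probes (33.8% with a higher and 17.6% with a lower value in mPFC).

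**Figure D4:**
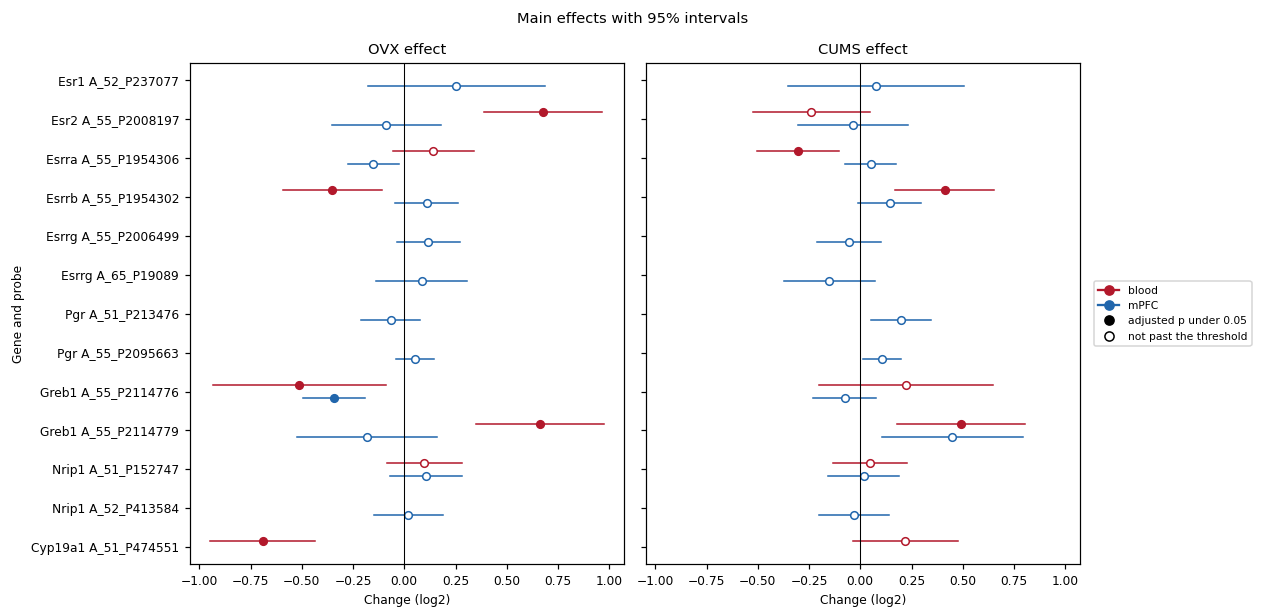
Changes with OVX (left) and CUMS (right) on the log2 scale for the member probes detected in blood (red) or mPFC (blue), with 95% intervals; filled points passed the threshold of 0.05 on the adjusted p. Esr2 and the Greb1 probe A_55_P2114779 had positive OVX changes in blood (0.68 and 0.66) and intervals spanning 0 in mPFC.

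Because blood and mPFC came from the same mice, their levels were also correlated over the 24 mice after removing group means, for the 5 genes detected in both. Pearson's r was 0.38 for Nrip1 (rho = 0.39, permutation p = 0.0999 and 0.0838), 0.27 for Esr2 (rho = 0.17, p = 0.285 and 0.489), 0.20 for Esrra, 0.16 for Greb1 and 0.09 for Esrrb, and the adjusted permutation p was 0.493 or more for r. Without the 2 mice farthest from the median in blood, r for Nrip1 was 0.27, and with slide means removed as well it was 0.08.

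Among the other genes of the pathway, the receptor coactivators and the target genes of the related receptors had the highest counts in blood. With OVX, 17 of 31 coactivator probes were higher and 6 lower, and 19 of 35 probes of the target genes of the related receptors were higher and 7 lower, beside 27.4% and 27.7% of all probes. With CUMS, 0 of 31 coactivator probes were higher and 16 lower, and of the target genes 2 were higher and 20 lower, beside 19.1% and 29.4% of all probes. The lists were chosen with earlier results known and were not tested as lists. The steroid receptor coactivator Ncoa3 rose with OVX (0.42 ± 0.08, adjusted p = 0.000379) and fell with CUMS (-0.30 ± 0.08, adjusted p = 0.00607) in blood, whereas its relative Ncoa2 fell with OVX (-0.19 ± 0.07, adjusted p = 0.036) and had a CUMS change of 0.10 (adjusted p = 0.273). Of the 3 probes of Ncoa1, none passed for OVX (0.06 to 0.21) and 1 was lower with CUMS (-0.28 ± 0.10, adjusted p = 0.0252). The largest OVX changes within these lists were those of Nos3, endothelial nitric oxide synthase (-1.18 ± 0.21, adjusted p = 0.000236), and of both probes of Prmt1, an arginine methyltransferase that acts as a coactivator (1.16 ± 0.22 and 1.12 ± 0.21).

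Of 17 corepressor probes, 9 were higher and 1 lower with OVX, and 3 higher and 7 lower with CUMS, to be read beside the same 27.4% and 27.7% (OVX) and 19.1% and 29.4% (CUMS) of all probes. Of the 7 detected probes of estrogen supply and metabolism, 1 was higher and 2 lower with OVX. Of 23 probes of textbook estrogen-responsive genes, 5 were higher and 7 lower with OVX, beside a median change of 0.00 for the list and 0.04 for all probes.

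In mPFC with OVX, 11 of 40 coactivator probes were higher and 2 lower, and 9 of 22 corepressor probes were higher and 0 lower. Of 40 probes of the target genes of the related receptors, 10 were higher and 2 lower. Of 31 probes of textbook estrogen-responsive genes, 2 were higher and 2 lower. Over all probes, 19.1% were higher and 11.7% lower. With CUMS in mPFC, at most 1 probe of any list was higher and at most 1 lower, beside 2.33% and 1.86% of all probes. Among cell markers in mPFC, 6 of 10 microglia probes were higher and 2 of 6 meninges probes lower with OVX. The summed microglia level was not higher. Its medians were 159 in control, 139 in CUMS, 138 in OVX and 132 in OVX+CUMS mice, with overlapping ranges. The summed level of markers of striatum, septum and hypothalamus was 14.5 to 20.7 in control, 17.3 to 18.4 in CUMS, 18.2 to 26.1 in OVX and 16.6 to 22.1 in OVX+CUMS mice. The part of these cell markers in the changes in mPFC was not tested. The corepressor Ncor1 was higher on probe A_52_P561927 (0.31 ± 0.06, adjusted p = 0.000307), and its other 3 detected probes did not pass. The 3 largest called OVX changes within these lists in mPFC were all lower. They were those of Cyp17a1, the steroid 17-hydroxylase that makes androgen precursors (-0.58 ± 0.13, adjusted p = 0.00195), of Ppargc1b, the PGC-1β coactivator of the related receptors (-0.46 ± 0.10, adjusted p = 0.00132), and of the citric acid cycle gene Ogdh (-0.41 ± 0.04, adjusted p = 1.44e-05). Neither probe of Ppargc1a passed.

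**Figure D5:**
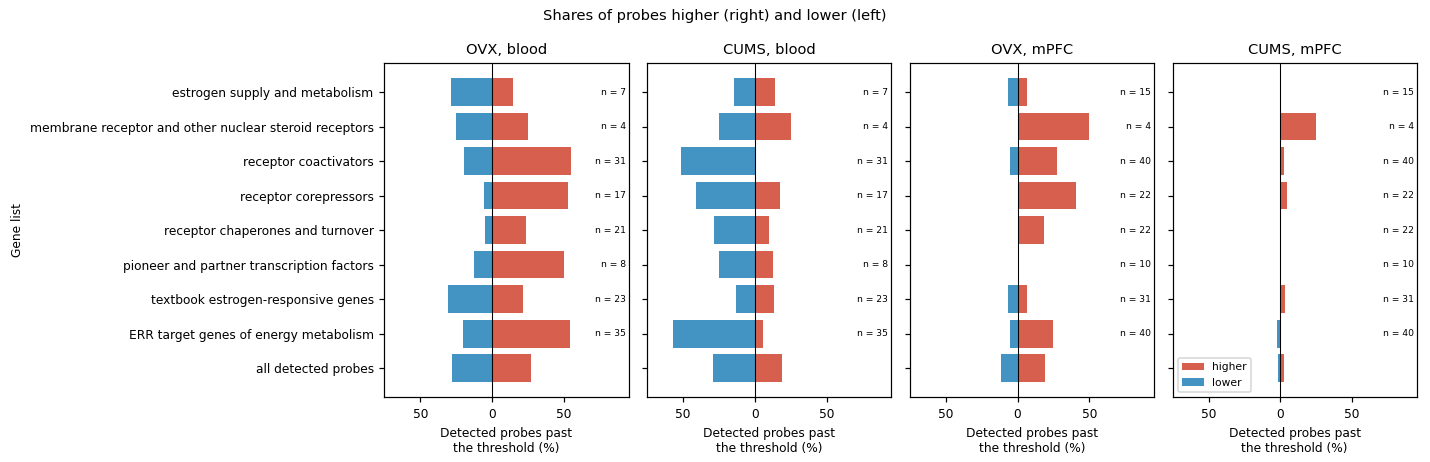
Share of detected probes of each gene list, in %, that passed the threshold as higher (to the right) or lower (to the left) with OVX or CUMS in each tissue, with the number of detected probes; the lowest bar is the share over all detected probes. With CUMS in blood, 16 of 31 coactivator probes and 20 of 35 probes of the target genes of the related receptors were lower.

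The genes whose levels ran most closely with the members over the 24 arrays of a tissue, after removing group means, are given as a description. For Esr2 in blood they included Scd3, a fatty acid desaturase (r = 0.97), and Fgd4, an exchange factor for a small GTPase (r = 0.97), and for Greb1 A_55_P2114776 in blood Spef1, Stmn1 and Sp110 (r = 0.98 each). In mPFC they were Rgs13, Gpr85 and Npy2r, the neuropeptide Y receptor Y2, for Esr1 (r = 0.96 each), and Nr1d1, the clock repressor REV-ERBα, led for Esrrb (r = 0.81). These arrays share labelling and slides, and 3 slides enter every such correlation.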

How the data were processed

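Total RNA from whole blood and mPFC of 24 mice was labelled with Cy3 and hybridised to 48 single-colour Agilent mouse arrays. The authors scanned them with Feature Extraction 10.7.3.1, and the deposited files hold, per spot, the processed signal, a background-subtracted intensity on a linear scale, with detection flags; a deposited table holds the authors' log2 values after a 75th percentile shift. Here log2 processed signal minus the 75th percentile of each array was used, and spots of 1 probe were averaged. After removal of a constant per array, 100% of single-spot log2 signals differed from the authors' values by less than 0.001. That constant differed from the percentile used here by a median of 0.0046. No count or depth exists for arrays, so precision rests on the number of mice.

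Detected probes (well above background on all 24 arrays of the tissue, signal over 50 on at least 2) were fitted per tissue with limma 3.58.1 in R 4.3.3: a factorial model of OVX, CUMS and their interaction, and a 4-group model for differences from control mice, with Benjamini-Hochberg adjustment over all detected probes at 0.05. The 3 differences share the control mice. Tissues were compared over 48 arrays with mouse as a random block. Correlations used 1e+05 permutations. The script was tested on simulated data. Groups came from the sample labels. Replicates were separate mice. Replicate numbers did not pair the mice of different groups (median correlation of same-numbered deviations -0.0931 in blood and 0.0384 in mPFC).

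All probes of the 9 genes were named. From the pathway lists, the 3 largest called changes per tissue and factor and a few fixed coregulators and receptors (among them Ncoa1, Ncoa2, Ncoa3, Ncor1, Ppargc1a and Gper1) were eligible; some eligible genes are not reported here. Members and lists were chosen with earlier results of these data known. Alternatives were the background correction, scaling, detection filter, slide or replicate blocks, no variance moderation and leaving out single mice. Figures were drawn with matplotlib 3.10.9.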

Additional observations from a re-analysis of the deposited data

Results flagged for a closer look

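Of 76 sets of 6 mice (a detected member probe in a group and tissue), 8 held a mouse whose gap to the nearest other exceeded Dixon's 95% critical value, and chance marks about 1 in 20 such sets. In blood these were Nrip1 in OVX mouse 2 (1.27, others 0.89 to 1.02), Greb1 A_55_P2114779 in OVX mouse 3 (-0.14, others -0.78 to -0.61) and in OVX+CUMS mouse 1 (-0.67, others -0.43 to -0.33). In mPFC they were Esr2 in OVX+CUMS mouse 3 (2.17, others 1.03 to 1.43), Pgr A_51_P213476 in OVX+CUMS mouse 6 (-2.42, others -1.96 to -1.77), Pgr A_55_P2095663 in OVX+CUMS mouse 1 (0.59, others 0.33 to 0.39), Esrrb in control mouse 2 (-1.65, others -1.33 to -1.20) and Esrrg A_65_P19089 in CUMS mouse 6 (-0.98, others -0.49 to -0.23).

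The effect of OVX differed between mPFC and blood, by the test of the difference, for Esr2 (-0.76), Esrra (-0.29), Esrrb (0.46) and Greb1 A_55_P2114779 (-0.84), and the effect of CUMS differed for Esrra (0.35).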

How the results depend on the processing

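Of the alternatives tried, slide as a block ended the most calls. With it, the members called for OVX went from 5 to 0 in blood and from 1 to 0 in mPFC, the OVX effect of Greb1 A_55_P2114776 in blood turned from -0.51 to 0.33, the members whose OVX effect differed between tissues went from 4 to 0, and that difference for Esrra turned from -0.29 to 0.07. Without a detection filter, 8 of the 18 member probes were called for OVX in blood (2 higher, 6 lower), beside 32.9% of all 55681 probes. Only 7 of the 18 were detected in blood. In that setting, 17 of the 18 differed between tissues, and the share over all probes was not computed. The 18 include a probe above background on no array (Esr1 A_55_P2030883), and the median difference of all probes was -1.50. This count therefore does not set the members apart. Normexp correction gave 5 of 7 for CUMS in blood, beside 48.9% of all probes. For OVX in mPFC, 2 of 12 were called under normexp, quantile normalization, the percentile over detected probes, and the spike-in shift. The share over all probes in these settings was 32.9%, 27.6%, 26.7% and 21.5%. Spike-in scaling turned the tissue difference of Esr2 (0.40) and Greb1 A_55_P2114779 (1.00), and moved the median OVX and CUMS changes of all blood probes to 0.39 and -0.33. With it, 10568 of all blood probes were higher and 1528 lower for OVX, against 5696 and 5751. Detection on all 48 arrays left 6 member probes in mPFC.

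With replicate number as a block, although the numbers do not pair the mice, 2 members were called for OVX and 1 (Greb1 A_55_P2114779, 0.45) for CUMS in mPFC. The shares over all mPFC probes were 31% and 4.57%. The counts of members in blood did not move.

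Leaving out single mice gave 4 to 5 members for OVX, 3 to 4 for CUMS and 0 to 1 for the interaction in blood, 1 to 2, 0 to 1 and 0 in mPFC, and 6 to 7 detected in blood. The Greb1 A_55_P2114776 call in blood was lost without control 2, 4 or 5, CUMS 2, 5 or 6, OVX 5 or 6, or OVX+CUMS 1, 3 or 5. The remaining causes were not tested. Low signals limit Cyp19a1 (at most 63.2 in blood) and Greb1 A_55_P2114779 (26.5 to 54.9 in control mice).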
